A study of Mus musculus with 18 samples.

Results

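The genes described here are the mouse genes whose symbols name linker histones (H1f) or the numbered copies of the core histones H2A, H2B, H3 and H4 (H2ac, H2bc, H3c and H4c), with pseudogene symbols left out. There were 65 of them among the 18397 genes of the expression table: 10 for H1, 16 for H2A, 16 for H2B, 12 for H3 and 11 for H4. In RefSeq (GRCm38.p6), 61 lay in the histone gene clusters, 51 on chromosome 13 and 10 on chromosome 3. The other 4, H1f0, H1f10, H1f8 and H1f9, are linker histone genes outside these clusters, so the set is wider than clustered genes alone.

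Histones package DNA into nucleosomes. Pairs of H2A with H2B join a core of H3 and H4, and linker histone H1 binds where DNA enters and leaves. Most clustered histone genes are copied into RNA during S phase under the control of Npat, and their mRNAs end not in a poly(A) tail but just after a stem-loop that is bound by Slbp, the stem-loop binding protein. Libraries made from poly(A) RNA therefore catch such genes mainly through transcripts that carry a tail, through tails added in other ways, or through RNA that escaped selection, and these sources cannot be told apart in gene counts. H1f0 (histone H1.0) and H1f10 (histone H1X) are replacement linker histones, made outside S phase too, from mRNAs with a poly(A) tail.

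RNA was measured in 18 poly(A)-selected libraries, 3 in each of 6 groups. The groups were Stiff-TW, Stiff+mito and Stiff, and Soft-TW, Soft+mito and Soft, where Stiff and Soft name the matrix. The labels spell out neither mito nor TW and give no stiffness, and the series title names stiffness-related transfer of mitochondria as the subject. All libraries are labelled RAW264.7, a mouse macrophage line, and the labels call the 3 libraries of a group biosamples without saying whether they were separate cultures, so p-values measure only the spread between libraries, which may be technical. Of 19 macrophage markers in the table, 9 stayed under 1 TPM in every library, among them Ptprc (CD45, at most 0.27 TPM) and Adgre1 (F4/80, at most 0.14 TPM and listed at 0 in 9 libraries), and Csf1r, a receptor gene that macrophages depend on, had at most 1.1 TPM. The list was not low throughout, since 4 markers had at least 1 TPM in every library: Cd14 (20.05 to 34.25 TPM), Mertk (12.3 to 24.96), Lyz2 (5.07 to 30.8) and Cd68 (3.95 to 15.03). Of 15 epithelial genes, the keratins Krt8 and Krt18 had at least 431 and 233 TPM, while the other 13 stayed under 1 TPM in every library, Epcam at most 0.1 and Cdh1 at most 0.34. Of 14 fibroblast genes, 8 had at least 1 TPM in every library. The libraries are therefore called by their group names only. In such bulk samples, fewer cells with an RNA and less of that RNA in each cell cannot be told apart.

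Estimated counts totalled 16054637 to 16887244 per library, and the 65 histone genes together took 10063 to 16195 of these, or 0.0616% to 0.0991%. Levels between genes are given in TPM (transcript abundance scaled by length to a common sum), and changes as log2 fold changes of counts, with an approximate standard error after the ± sign. Histone mRNAs are short, so 1 count weighs more in TPM than in a longer gene. The floor of 3 counts that a count of 0 allows came to 2.56 to 3.47 TPM for H4c9 but 0.135 to 0.15 TPM for H1f0, for counting error only.

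The 3′ ends that the annotation gives these genes are shown first, because they bear on which of them a poly(A) library can hold. A single GENCODE M21 transcript was read per gene, the longest that matched its most counted RefSeq transcript with a match. In the 5 genes with several RefSeq transcripts, H2bc4 among them, the others were not read. Of the 65 genes, 54 had a 3′ UTR in the transcript read. The histone stem-loop letters, 16 bases of which 5 are free, were held by 40 of these. They stood in 0.188% of 44785 coding transcripts (84) overall. The most frequent form, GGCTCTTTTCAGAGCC, was found in 24 genes, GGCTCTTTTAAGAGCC in 6, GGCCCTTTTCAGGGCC in 5, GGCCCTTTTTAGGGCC in 2, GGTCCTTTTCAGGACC in 2 and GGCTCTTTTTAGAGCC in 1. A poly(A) signal, AATAAA or ATTAAA starting within 40 bases of the 3′ end, was found in 17 of the 54 genes and in 62.9% of coding transcripts overall. Both features were present in 9 genes, the stem-loop alone in 31, the signal alone in 8 and neither in 6. These matches, read on the transcript strand, describe letters in the annotation and are not measured ends.

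The ends of the genes that the results turn on are printed 5′ to 3′ on the strand of the gene, in lower case with the stem-loop or the poly(A) signal in capitals, from GENCODE M21 on GRCm38.
H1f2 stem-loop, chr13:23739507-23739532, plus strand: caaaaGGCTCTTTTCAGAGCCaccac
H1f2 poly(A) signal, chr13:23740332-23740357, plus strand: gtatgcttctAATAAAaagcgtttag
H2ac18 stem-loop, chr3:96246027-96246052, plus strand: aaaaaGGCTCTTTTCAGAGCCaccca
H2bc8 stem-loop, chr13:23571838-23571863, plus strand: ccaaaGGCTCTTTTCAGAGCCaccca
H4c9 stem-loop, chr13:22040961-22040986, minus strand: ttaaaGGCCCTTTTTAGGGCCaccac
H4c9 poly(A) signal, chr13:22040641-22040666, minus strand: ttctgtttacATTAAAagtattctat
H4c18 stem-loop, chr13:21831793-21831818, minus strand: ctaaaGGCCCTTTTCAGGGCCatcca
H1f0 poly(A) signal, chr15:79030473-79030498, plus strand: aaaactttaaAATAAAactggaaagg
H1f10 poly(A) signal, chr6:87980426-87980451, minus strand: cctggggcgcAATAAAcggttccaac
H2bc21 poly(A) signal, chr3:96223707-96223732, plus strand: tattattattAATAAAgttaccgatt
H1f0, H1f10 and H2bc21 thus carried a signal and no stem-loop. In H1f2 the annotated transcript ran 840 bases past the stem-loop to an end with AATAAA, and in H4c9 it ran 330 bases past it to an end with ATTAAA. H2ac18 had the stem-loop 35 bases before its end and no signal. H2bc4 had neither in the transcript read, which held 94.2% of its counts. RefSeq, whose identifiers the expression table uses, ended 37 of the 40 genes within 10 bases past the stem-loop, H1f2 and H4c9 among them, so longer transcripts of these genes may lie outside the counted model.

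Promoters are shown for H2ac18 and H1f2, well-counted cluster genes that changed by more than 1 on the log2 scale, as RefSeq (GRCm38.p6) gives them, 250 bases before to 50 after the start. The search covered CCAAT, the Oct-factor letters ATTTGCAT and TATAAA on both strands, and matches are in capitals, reverse matches as they read on the printed strand.
H2ac18 promoter, chr3:96245247-96245546, plus strand: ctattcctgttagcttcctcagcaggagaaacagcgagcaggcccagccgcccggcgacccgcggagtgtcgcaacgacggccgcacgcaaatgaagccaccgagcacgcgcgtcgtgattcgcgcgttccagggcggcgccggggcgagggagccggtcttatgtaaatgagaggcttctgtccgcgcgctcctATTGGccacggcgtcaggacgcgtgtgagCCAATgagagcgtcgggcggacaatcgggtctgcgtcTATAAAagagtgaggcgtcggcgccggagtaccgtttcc
H1f2 promoter, chr13:23738557-23738856, plus strand: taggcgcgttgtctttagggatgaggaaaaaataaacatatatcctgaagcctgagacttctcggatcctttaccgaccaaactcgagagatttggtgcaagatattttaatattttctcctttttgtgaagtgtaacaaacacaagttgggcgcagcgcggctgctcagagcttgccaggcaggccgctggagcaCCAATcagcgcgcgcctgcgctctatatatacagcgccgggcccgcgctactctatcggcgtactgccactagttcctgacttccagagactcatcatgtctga
Promoters were matched for 60 of the 65 genes. CCAAT stood in 85.0% of these, against 37.9% of all 27025 promoters, TATAAA in 51.7% against 14.2%, and ATTTGCAT in 16.7% against 1.75%. Some of the 60 windows overlap on opposite strands, as those of H2ac7 and H2bc7 do, so the same site can count for both genes. The H1f0 promoter held none of the 3, which says only that these letters are not in that window.

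The set was uneven in level. A mean of at least 10 TPM over the 18 libraries was reached by 8 genes: H1f0 (519 TPM), H2ac18 (130), H2bc4 (94.4), H4c9 (70.2), H1f2 (67.8), H1f10 (29.6), H2bc8 (17.5) and H4c18 (13.7). H1f0 alone made 48.8% of the summed TPM of the 65 genes. By class, H1 held 58.3% of that sum, H2A 15.1%, H2B 13.4%, H4 11.0% and H3 2.14%. In H1, H2A, H2B and H4 a single gene held most of the class (H1f0 83.6%, H2ac18 81.1%, H2bc4 65.9% and H4c9 59.96%), while the leading H3 gene, H3c14, held 20.0%. A mean count under 10 was found for 48 genes. By level instead, the 28 genes with the stem-loop alone and a mean under 10 TPM together gave 80.2 to 170 counts per library.

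**Figure D1:**
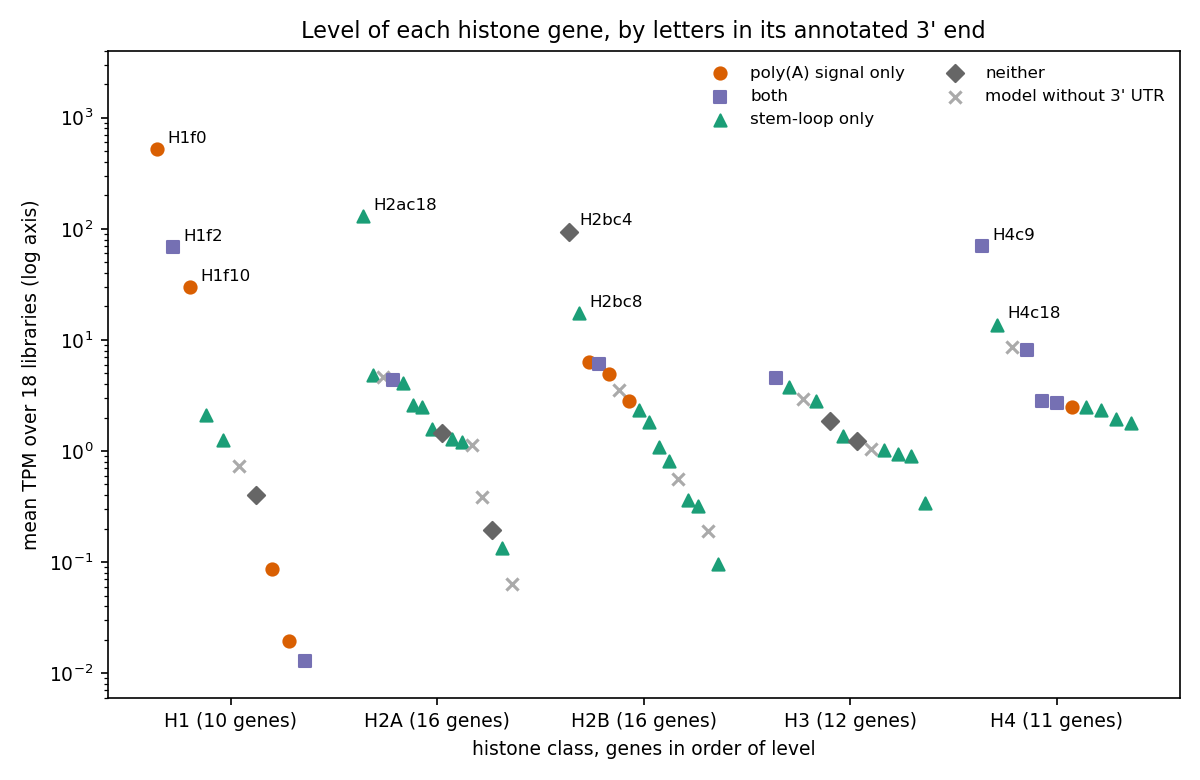
Mean TPM over the 18 libraries (log axis) of each of the 65 histone genes, grouped by class in order of level; the symbol and colour give the stem-loop or poly(A) signal letters of the annotated 3′ end. H1f0, a gene with the signal only, is highest at 519 TPM, and the 31 genes with the stem-loop only span 0.0956 to 130 TPM.

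The sums over all 65 genes were 1212 to 1262 TPM in the Stiff-TW libraries, 1060 to 1088 in Stiff+mito and 866 to 898 in Stiff, and 1185 to 1192 in Soft-TW, 1031 to 1050 in Soft+mito and 945 to 983 in Soft. These sums were highest in Stiff-TW and lowest in Stiff, and no groups overlapped, but H1f0 carried much of each sum. Without H1f0 the sums were highest in Soft-TW (667 to 672 TPM) and lowest in Stiff (374 to 387). Stiff-TW (538 to 584 TPM) then lay below Soft+mito (610 to 655) and overlapped Soft (521 to 550). The H2A sum stood apart by matrix, with 131 ± 11.7 TPM in Stiff-TW, 94.4 ± 4.06 in Stiff+mito and 73.7 ± 5.13 in Stiff, against 225 ± 9.32 in Soft-TW, 241 ± 9.70 in Soft+mito and 198 ± 9.49 in Soft (SD, n = 3 each). Without H2ac18 the other 15 H2A genes summed to 24.5 to 34.7 TPM in every group mean, so the difference between matrices lay in this one gene.

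Among linker histones, H1f0 (chromosome 15, 79028212 to 79030504) had 679, 675 and 676 TPM in Stiff-TW, 590, 579 and 573 in Stiff+mito and 507, 491 and 510 in Stiff. In the soft groups it had 519, 517 and 520 TPM in Soft-TW, 425, 395 and 411 in Soft+mito and 424, 426 and 433 in Soft. The order was Stiff-TW, Stiff+mito, Soft-TW, Stiff, Soft and Soft+mito, and only Soft and Soft+mito, next to each other in it, overlapped. H1f2 (histone H1.2, chromosome 13, 23738807 to 23739531) had 111, 107 and 110 TPM in Stiff-TW, 68.8, 71.5 and 72.1 in Stiff+mito and 39.0, 46.6 and 52.8 in Stiff. It had 88.8, 88.9 and 93.1 TPM in Soft-TW, 51.7, 59.6 and 50.04 in Soft+mito and 37.7, 34.1 and 38.7 in Soft. Both TW groups were thus highest for H1f2 and both mito groups came next, with an overlap of neighbours only between Soft+mito and Stiff. H1f10 (chromosome 6, 87980421 to 87981482) had 39.2, 41.9 and 41.5 TPM in Stiff-TW, 34.5, 29.0 and 36.0 in Stiff+mito and 29.4, 28.4 and 30.1 in Stiff. In the soft groups it had 23.6, 21.4 and 24.2 TPM in Soft-TW, 23.8, 25.8 and 26.4 in Soft+mito and 28.6, 23.5 and 26.2 in Soft. Stiff-TW alone stood clear of its neighbour in the order for H1f10, and the 3 soft groups overlapped. The other 7 H1 genes were lower, at 2.12 TPM or less on average.

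The leading H2A gene was H2ac18 (chromosome 3, 96245497 to 96246052), which encodes a canonical H2A. It had 106, 95.7 and 117 TPM in Stiff-TW, 62.3, 61.8 and 57.0 in Stiff+mito and 44.1, 36.6 and 51.9 in Stiff, against 209, 203 and 188 in Soft-TW, 193, 218 and 210 in Soft+mito and 166, 165 and 159 in Soft. Every soft library lay above every stiff library, and only Soft+mito and Soft-TW overlapped as neighbours. Its counts are less certain than those of H1f0, H1f2 and H1f10, whose counts were all whole. Its near copy H2ac19 shares its letters, the values of both were mostly not whole, and GENCODE places over it an antisense gene, Gm20633, and a longer transcript of the same strand, Gm20634, that runs on through H3c14. The count of this locus may hold RNA of any of these, and the sources used here do not say how counting treated strand. An antisense overlap is not particular to H2ac18. Antisense genes also lie over H1f0 (Gm49544) and H1f10 (Gm5577), and 22 of the 65 genes have another annotated gene on the opposite strand. With H2ac19 added, the pair had 258 to 305 counts in Stiff-TW, 153 to 173 in Stiff+mito and 95 to 124 in Stiff, against 514 to 534 in Soft-TW, 543 to 599 in Soft+mito and 423 to 444 in Soft, in the same pattern.

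For H2B, H2bc4 (chromosome 13, 23684199 to 23692480) led. It had 106, 89.7 and 102 TPM in Stiff-TW, 79.9, 87.7 and 89.4 in Stiff+mito and 60.8, 52.8 and 62.8 in Stiff, against 122, 136 and 132 in Soft-TW, 101, 102 and 105 in Soft+mito and 89.4, 89.1 and 93.0 in Soft. On each matrix TW was highest, mito next and the matrix alone lowest, and Soft+mito, Stiff-TW, Soft and Stiff+mito overlapped as neighbours in the order. H2bc8 had 11.4, 11.6 and 12.9 TPM in Stiff-TW, 45.3, 37.7 and 34.2 in Stiff+mito and 22.9, 23.4 and 14.8 in Stiff, against 8.86, 7.48 and 4.74 in Soft-TW, 20.3, 26.8 and 15.0 in Soft+mito and 6.99, 2.66 and 8.22 in Soft. H2bc8 was thus highest with mito on each matrix, unlike H2bc4, with which its annotated transcript shared 33.3% of its 150-base windows. It rested on 4.33 to 72.6 counts per library, none of them whole. H2bc21, with a signal and no stem-loop and no window shared with other genes, had 2.17, 2.27 and 2.32 TPM in Stiff-TW, 1.51, 2.32 and 2.29 in Stiff+mito and 2.28, 1.87 and 2.08 in Stiff, against 3.30, 3.05 and 3.02 in Soft-TW, 3.13, 3.34 and 3.36 in Soft+mito and 4.42, 4.60 and 3.79 in Soft. Every soft library was above every stiff one for H2bc21, with Soft highest.

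For H4, H4c9 (chromosome 13, 22040960 to 22041362) had 79.3, 77.6 and 77.0 TPM in Stiff-TW, 63.2, 73.3 and 57.8 in Stiff+mito and 54.6, 62.5 and 50.5 in Stiff, against 75.3, 77.4 and 96.3 in Soft-TW, 54.8, 86.6 and 70.0 in Soft+mito and 58.4, 74.0 and 75.5 in Soft. All neighbours in its order of groups overlapped. H3 genes gave little RNA here: the 12 genes summed to 18.5 ± 2.40 TPM in Stiff-TW, 26.2 ± 2.97 in Stiff+mito and 20.6 ± 4.42 in Stiff, against 17.9 ± 3.59 in Soft-TW, 26.5 ± 2.64 in Soft+mito and 27.2 ± 6.71 in Soft (SD, n = 3 each). Histone H3.3, by contrast, is encoded by the replacement genes H3f3a and H3f3b, whose mRNAs carry tails, and H3f3b alone had 784 to 1051 TPM in the group means.

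**Figure D2:**
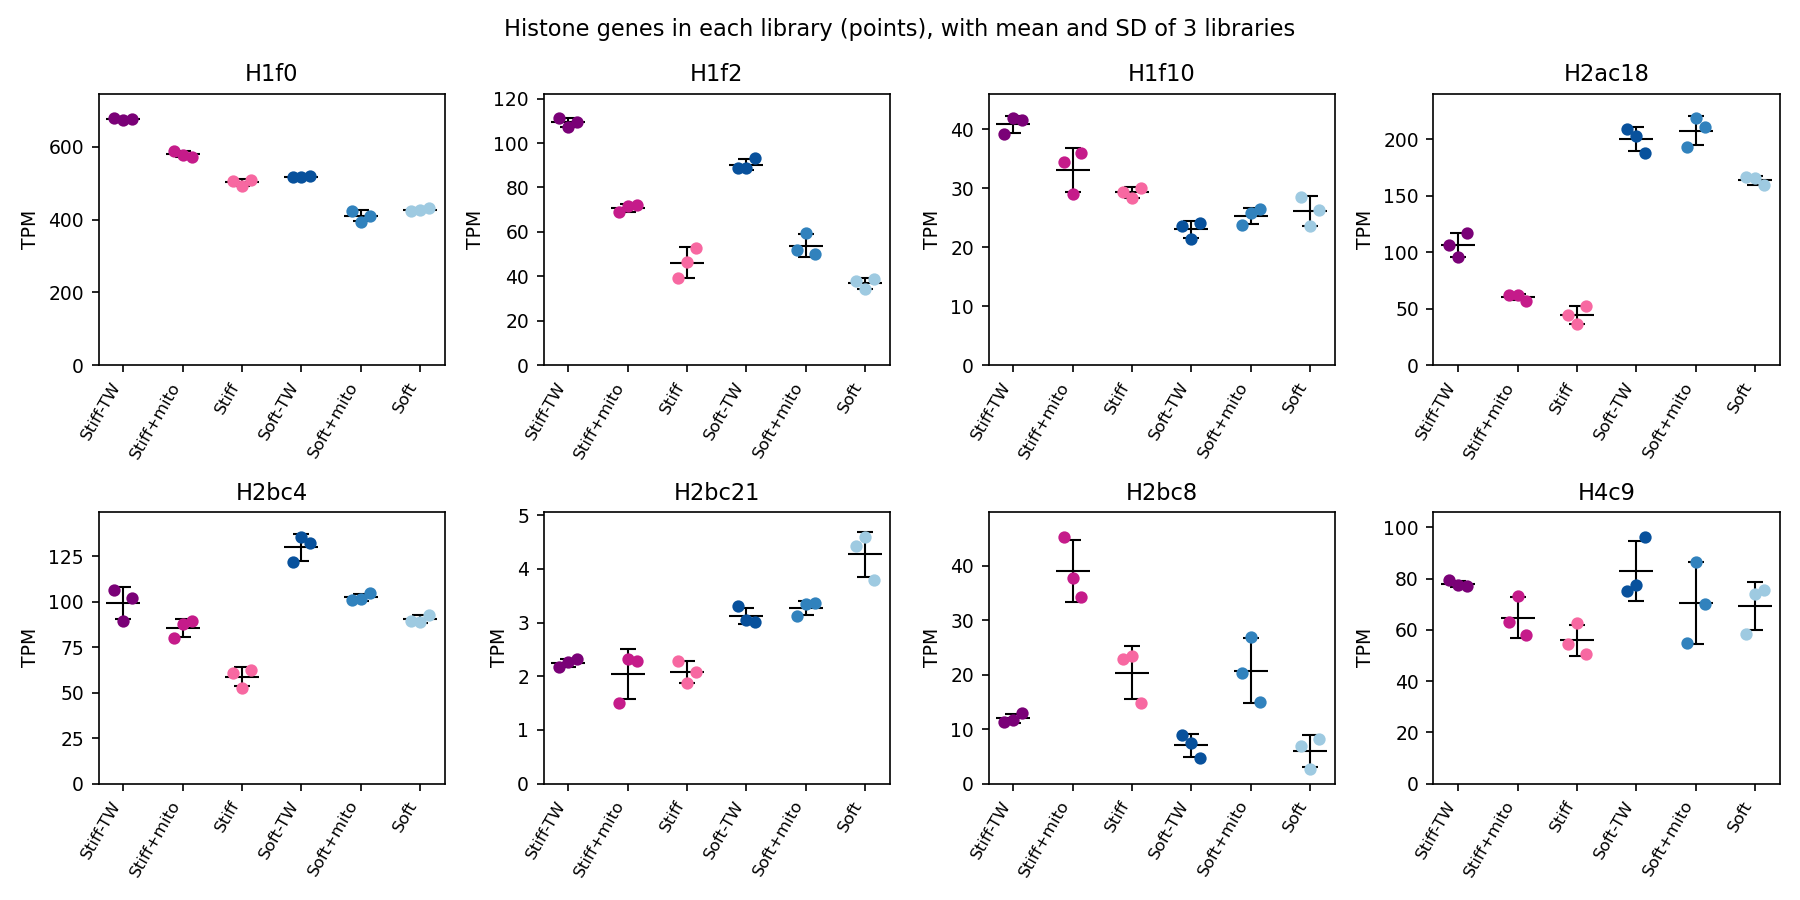
TPM of 8 histone genes in each of the 18 libraries (points), with the mean and SD of the 3 libraries of a group; each axis starts at 0. H2ac18 and H2bc21 are higher in all soft libraries, H1f2 is highest in both TW groups, and H2bc8 peaks in Stiff+mito at a mean of 39.1 TPM.

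Changes were tested with edgeR over the 12245 genes that passed a filter on low counts, among them 23 of the 65 histone genes. The 42 not tested had mean counts of 0.056 to 6.8 and together 78.3 to 134 counts per library, with both the lowest and the highest sum in Soft. Of the 23 tested, 13 (56.5%) changed in at least 1 of 7 comparisons of groups, against 92% of all tested genes, and 10 in none. Those 10 had mean counts of 6.44 to 30.6, and their log2 fold changes, between -2.74 and 2.05, did not pass.

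Stiff set against Soft addressed the matrix alone. The linker histone genes H1f0, H1f2 and H1f10 rose, while the core histone genes H2ac18, H2bc21, H2bc4 and H4c9 fell and H2bc8 rose. The other 2 linker genes tested did not pass, H1f3 at 0.42 ± 0.43 (edgeR adjusted p = 0.428) and H1f4 at -1.12 ± 0.65 (adjusted p = 0.139). Of the 23 tested genes, 4 rose and 4 fell, against 29.1% of all tested genes risen and 24.7% fallen. The 8 that changed make 34.8%, against 53.8% of all tested genes. With library totals as scaling 3 rose and 4 fell, and the share of risen among all called genes was 44.05%, against 54.1% with TMM. The median log2 fold change was -0.38, against 0.015 over all genes, and belonged to H2ac7 (-0.38 ± 0.39), which was not called. Here and below, medians of the 23 are descriptions without a test. Most of these genes rest on few counts, and near copies with divided reads are counted apart. H2ac18 fell by 1.93 ± 0.09 on the log2 scale (edgeR adjusted p = 3.4e-38), H2bc21 by 0.95 ± 0.15 (adjusted p = 1.3e-08), H2bc4 by 0.68 ± 0.07 (adjusted p = 1.0e-14) and H4c9 by 0.49 ± 0.16 (adjusted p = 0.00697). H1f0 rose by 0.31 ± 0.02 (adjusted p = 1.9e-26), H1f2 by 0.33 ± 0.09 (adjusted p = 0.00153), H1f10 by 0.22 ± 0.09 (adjusted p = 0.0253) and H2bc8 by 1.63 ± 0.31 (adjusted p = 2.8e-06). In scaled counts, Stiff and Soft libraries overlapped for H1f2 and for none of the other 7. The share of all tested genes without overlap was not counted. H1f4, H2ac19, H2ac7, H2ac8 and H3c4, which were not called, did not overlap either, so a lack of overlap adds little to the calls. Single libraries decided the smaller calls. H4c9 was not called without Soft library 3 (-0.39, adjusted p = 0.0683) and H1f2 not without Stiff library 3 (0.22, adjusted p = 0.0718). H1f10 was not called without Soft library 2 (0.16), Stiff library 1 (0.22) or Stiff library 3 (0.20), nor with library totals as scaling (0.18, adjusted p = 0.0708) or DESeq2 (0.21, adjusted p = 0.0969).

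Pairs of near-identical genes show how the division of reads bears on these calls. H3c14 and H3c15 had log2 fold changes of -2.74 ± 1.56 and -0.73 ± 1.42 in Stiff against Soft, with edgeR adjusted p = 0.160 and 0.695. In single libraries the counts stood almost wholly on one or the other: H3c14 had 0 counts in Soft library 2 while H3c15 had 38.3, and H3c14 had 49.3 counts in Soft library 3 while H3c15 had 4.32. Summed before the fit, an alternative added after seeing the data, the pair had 5.0 to 22.5 counts in Stiff and 27.8 to 53.6 in Soft. The sum fell by 1.62 ± 0.28 (edgeR adjusted p = 4.4e-07). The same-strand transcript Gm20634, which also covers H2ac18, holds all the letters of the H3c14 transcript read. Changes of this sum, here and below, may therefore not be separate from those of H2ac18, which was not tested. H2bc24 and H2bc23 summed to 29.6 to 41.8 counts in Stiff and 37.0 to 41.9 in Soft, and the sum did not pass (-0.11 ± 0.20, adjusted p = 0.663). H2ac18 with H2ac19 fell by 1.92 ± 0.08 (adjusted p = 5.4e-41), close to H2ac18 alone. H2ac19, H3c15, H2bc24 and H2bc23 were picked for these sums after their values were seen.

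**Figure D3:**
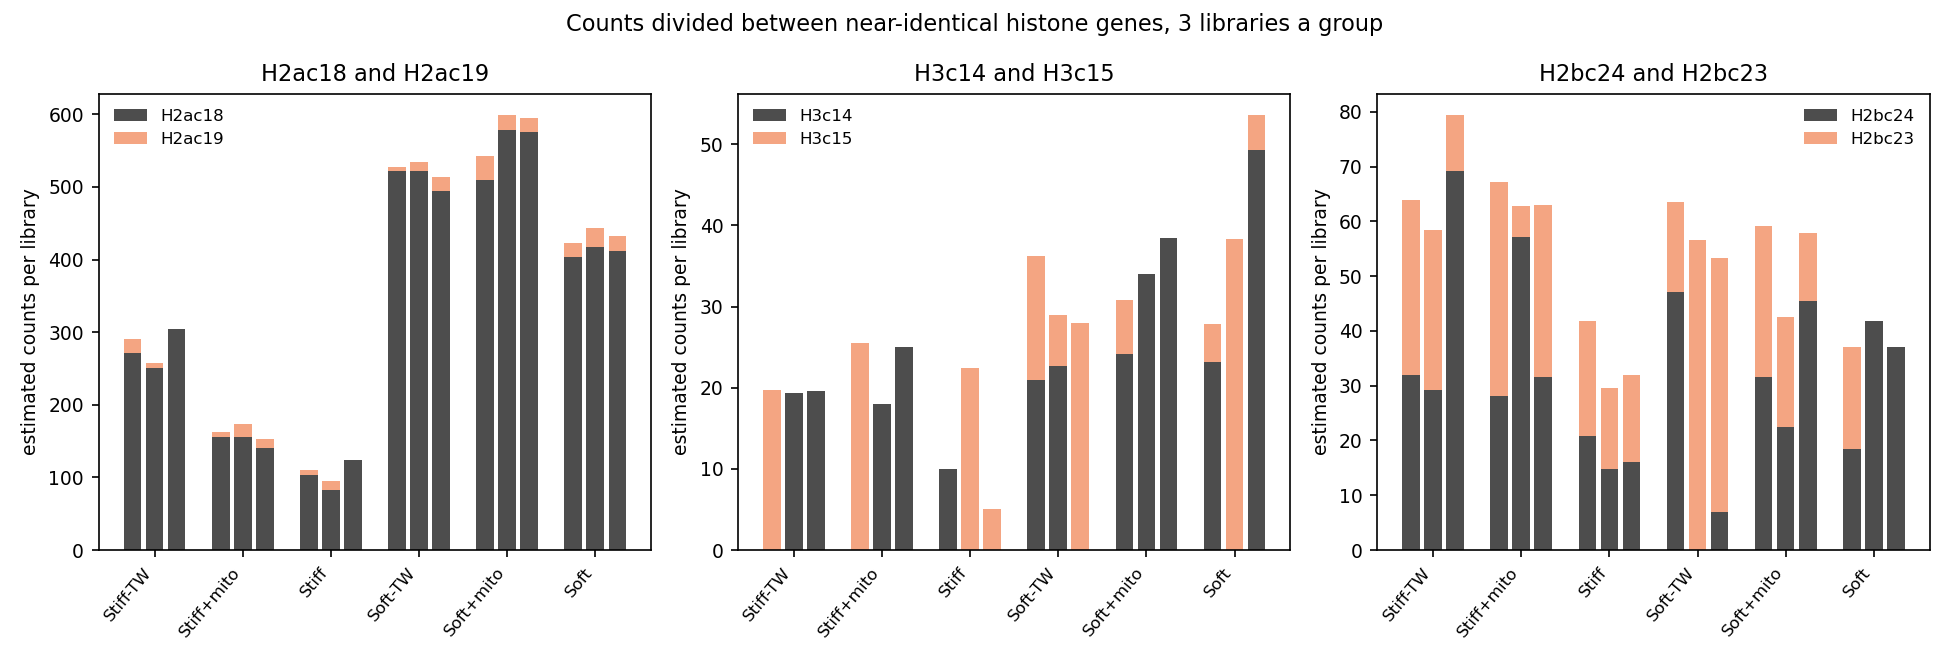
Estimated counts per library of 3 pairs of near-identical histone genes, stacked, with 3 bars per group. The split within a pair changes from library to library, while the sum of H3c14 and H3c15 lies between 5.0 and 22.5 counts in Stiff and between 27.8 and 53.6 in Soft.

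The comparisons of mito with its matrix alone asked how the addition labelled mito moved histone RNA. All histone genes that changed rose, on both matrices, and H2bc8, H1f2, H2ac18 and H2bc4 rose on both. On the soft matrix 4 of 23 rose and 0 fell, against 26.7% of all tested genes changed, 14.8% risen and 11.9% fallen. The median of the 23 was 0.24, against 0.01 over all genes, and belonged to H1f3 (0.24 ± 0.44), which was not called. H2bc8 rose by 1.86 ± 0.29 (edgeR adjusted p = 1.8e-07), H1f2 by 0.63 ± 0.09 (adjusted p = 5.7e-09), H2ac18 by 0.42 ± 0.06 (adjusted p = 1.8e-08) and H2bc4 by 0.25 ± 0.06 (adjusted p = 0.00102). H1f0 stood at 0.03 ± 0.02 (adjusted p = 0.221), and passed only without Soft+mito library 2 (0.07, adjusted p = 0.0212). H1f10 (0.05 ± 0.09) and H4c9 (0.08 ± 0.15) did not pass.

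On the stiff matrix 6 of 23 rose and 0 fell with mito, against 33.5% of all tested genes changed, 15.6% risen and 17.8% fallen. The median was 0.37, against a value close to 0 over all genes, and belonged to H4c9, which was not called. H2bc8 rose by 1.07 ± 0.21 (edgeR adjusted p = 1.4e-05), H1f2 by 0.66 ± 0.08 (adjusted p = 3.2e-11), H2bc4 by 0.53 ± 0.07 (adjusted p = 2.4e-09) and H2ac18 by 0.52 ± 0.11 (adjusted p = 6.2e-05). H1f0 rose by 0.21 ± 0.02 (adjusted p = 6.5e-16) and H1f10 by 0.20 ± 0.08 (adjusted p = 0.0476). The H1f10 call rested on single libraries and was lost without Stiff library 1 (0.20), 2 (0.18) or 3 (0.22), without Stiff+mito library 1 (0.18) or 3 (0.13), with DESeq2 (0.20, adjusted p = 0.135) and without the filter (0.20, adjusted p = 0.0629). H4c9 stood at 0.37 ± 0.17 (adjusted p = 0.0732) and passed without Stiff+mito library 3 (0.47, adjusted p = 0.0379). The near-identical pairs, summed, rose here by 0.85 ± 0.31 for H3c14 with H3c15 (adjusted p = 0.0265) and by 0.88 ± 0.18 for H2bc24 with H2bc23 (adjusted p = 3.1e-05), where none of the 4 genes passed alone.

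The comparisons of TW with its matrix alone gave the largest rises of linker histone H1f2. On the soft matrix 7 of 23 rose and 1 fell, against 56.9% of all tested genes changed, 28.9% risen and 28% fallen. With library totals as scaling 7 rose and 3 fell. The median was 0.28, against a value close to 0 over all genes, and belonged to H2ac8 (0.28 ± 0.37), which was not called. H1f2 rose by 1.38 ± 0.08 (edgeR adjusted p = 1.2e-30), H2bc4 by 0.53 ± 0.06 (adjusted p = 2.3e-13), H1f0 by 0.39 ± 0.02 (adjusted p = 2.7e-33) and H2ac18 by 0.37 ± 0.06 (adjusted p = 2.9e-07). H1f4 (histone H1.4), at 8, 12 and 11 counts in Soft-TW and 4, 6 and 4 in Soft, rose by 1.17 ± 0.45 (adjusted p = 0.0193). H4c18, at 19, 19 and 22 counts in Soft-TW and 14, 10.8 and 7 in Soft, rose by 0.95 ± 0.33 (adjusted p = 0.0106). H2bc21 fell by 0.34 ± 0.13 (adjusted p = 0.0217). H1f10 did not pass (-0.08 ± 0.09, adjusted p = 0.486), nor did H4c9 (0.31 ± 0.14, adjusted p = 0.0588), which passed without Soft library 3 (0.41) or Soft-TW library 1 (0.41).

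The calls on few counts depended on single libraries here. H1f4 was lost without Soft library 1 (1.07) or 3 (1.07), without Soft-TW library 2 (1.04) or 3 (1.13) and with DESeq2 (adjusted p = 0.0797). It passed the filter on low counts only through the Stiff-TW libraries, which lie outside this comparison. H2bc21 was lost without Soft library 1 (-0.33) or 2 (-0.28), without Soft-TW library 3 (-0.32) and with DESeq2 (adjusted p = 0.0720), and H4c18 without Soft library 3 (0.72, adjusted p = 0.0849). The seventh gene that rose, H2bc23 (2.68 ± 0.91, adjusted p = 0.0230), lies outside the rule for named genes and was picked after its values were seen. It had 16.6, 56.5 and 46.4 counts in Soft-TW and 18.5, 0 and 0 in Soft, and its near copy H2bc24 had 47.1, 0.06 and 7.01 counts in Soft-TW and 18.5, 41.9 and 37.0 in Soft. The pair summed to 53.4 to 63.6 counts in Soft-TW and 37.0 to 41.9 in Soft, a rise of 0.62 ± 0.18 (adjusted p = 0.00187). H2bc23 alone was not called without Soft library 2 (2.11) or 3 (2.11), without Soft-TW library 2 (2.32) or 3 (2.57), or with only the compared groups fitted (2.68, adjusted p = 0.121).

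On the stiff matrix 8 of 23 rose with TW and 0 fell, against 69.6% of all tested genes changed, 35.5% risen and 34.1% fallen. One of the 8, H1f4, passed the filter on low counts only through the Stiff-TW libraries, where it is high. The median was 0.48, against 0.01 over all genes. H2ac18 rose by 1.44 ± 0.10 (edgeR adjusted p = 1.8e-26), H1f2 by 1.37 ± 0.07 (adjusted p = 3.4e-33), H2bc4 by 0.91 ± 0.07 (adjusted p = 2.1e-22), H4c9 by 0.80 ± 0.16 (adjusted p = 3.3e-06), H1f10 by 0.56 ± 0.08 (adjusted p = 3.9e-10) and H1f0 by 0.48 ± 0.02 (adjusted p = 5.9e-42). None of these 6 calls was lost when any single library was left out. The other 2, H1f4 (2.37 ± 0.53, adjusted p = 4.9e-05) and H1f3 (histone H1.3, 0.85 ± 0.36, adjusted p = 0.0284), fall outside the rule for named genes and were picked after their values were seen. H1f4 had 11, 10 and 11 counts in Stiff-TW and 1, 3 and 2 in Stiff, and H1f3 had 17, 16 and 15 counts in Stiff-TW and 12, 7 and 8 in Stiff. H1f4 kept its call with any single library left out, but it did not pass the filter with only the compared groups fitted, and its place among the genes tested was set by the same libraries as its rise. H1f3 was not called with DESeq2 (0.85, adjusted p = 0.0938), without the filter (0.84, adjusted p = 0.0519), without Stiff library 2 (0.70) or 3 (0.77), or without Stiff-TW library 1 (0.80) or 2 (0.84). Summed, H3c14 with H3c15 rose by 0.70 ± 0.32 (adjusted p = 0.0484) and H2bc24 with H2bc23 by 0.98 ± 0.18 (adjusted p = 6.7e-07).

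**Figure D4:**
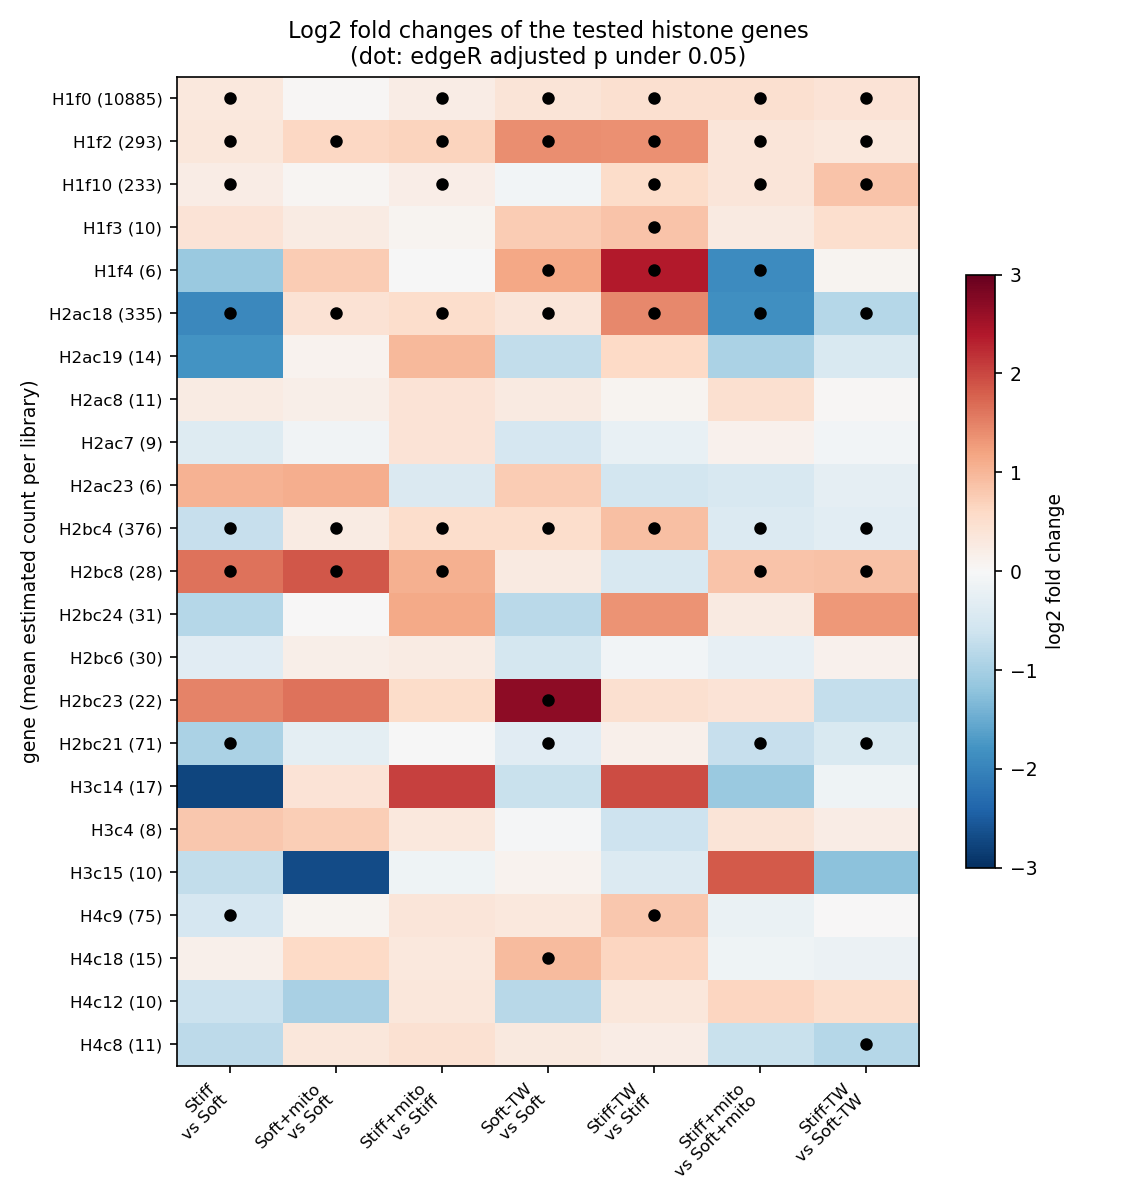
Log2 fold changes (colour) of the 23 tested histone genes in 7 comparisons of groups, with the mean estimated count per library after each name and a dot where the edgeR adjusted p was under 0.05. H2ac18, H2bc4 and H1f2 were called in all 7, and the 10 genes without a dot have mean counts of 6.44 to 30.6.

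The matrix was also compared within mito and within TW, against other libraries than the first comparison. In Stiff+mito against Soft+mito 4 genes rose and 4 fell, with 63.5% of all tested genes changed, 32.7% risen and 30.8% fallen. H2ac18 fell by 1.83 ± 0.08 (edgeR adjusted p = 9.2e-42), H2bc21 by 0.69 ± 0.15 (adjusted p = 3.9e-05), H2bc4 by 0.40 ± 0.06 (adjusted p = 3.2e-08) and H1f4 by 1.89 ± 0.57 (adjusted p = 0.00273), the last at 2 counts in each Stiff+mito library and 9, 7 and 8 in Soft+mito. H1f4 passed the filter on low counts only through the Stiff-TW libraries, which lie outside this comparison. H1f0 rose by 0.49 ± 0.02 (adjusted p = 4.0e-42), H1f2 by 0.37 ± 0.08 (adjusted p = 1.9e-05), H1f10 by 0.37 ± 0.08 (adjusted p = 5.5e-05) and H2bc8 by 0.85 ± 0.20 (adjusted p = 0.000131). H4c9 (-0.20 ± 0.15) passed only without Soft+mito library 1 (-0.36, adjusted p = 0.0418).

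In Stiff-TW against Soft-TW 4 genes again rose and 4 fell, with 54.3% of all tested genes changed, 27.6% risen and 26.7% fallen. H2ac18 fell by 0.85 ± 0.07 (edgeR adjusted p = 5.7e-21), H2bc4 by 0.31 ± 0.06 (adjusted p = 4.3e-06) and H2bc21 by 0.45 ± 0.15 (adjusted p = 0.00799). H1f10 rose by 0.85 ± 0.08 (adjusted p = 9.3e-17), H1f0 by 0.40 ± 0.02 (adjusted p = 1.9e-35), H1f2 by 0.32 ± 0.06 (adjusted p = 1.3e-05) and H2bc8 by 0.88 ± 0.32 (adjusted p = 0.0154), the last lost without Stiff-TW library 3 (0.81) or Soft-TW library 3 (0.68). H4c8 fell by 0.85 ± 0.37 (adjusted p = 0.0443) at 10.1, 7 and 6 counts in Stiff-TW and 12.4, 15 and 16.5 in Soft-TW. It was not called without Stiff-TW library 2 (-0.80) or 3 (-0.71), without Soft-TW library 2 (-0.82) or 3 (-0.77), with DESeq2 (adjusted p = 0.113) or without the filter (adjusted p = 0.0799). H1f0, H1f2, H1f10 and H2bc8 rose, and H2ac18, H2bc4 and H2bc21 fell, in the matrix comparison at all 3 settings.

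Whether mito or TW acted differently on the 2 matrices was tested as an interaction, the change on Stiff minus the change on Soft. For TW, 4 of 23 genes differed, all with a positive difference, against 36.1% of all tested genes, 16.4% with a positive and 19.7% with a negative difference. H2ac18 differed by 1.07 ± 0.12 (edgeR adjusted p = 1.3e-13), H1f10 by 0.64 ± 0.12 (adjusted p = 4.9e-06), H2bc4 by 0.38 ± 0.09 (adjusted p = 0.000559) and H1f0 by 0.09 ± 0.03 (adjusted p = 0.00948), the last not without Soft library 3 (0.07, adjusted p = 0.0607). H1f2, with nearly the same rise on both, differed by -0.02 ± 0.11 (adjusted p = 0.922). H4c9 (0.50 ± 0.21, adjusted p = 0.0587) passed without Soft library 1 (0.63) or Soft-TW library 3 (0.66), and with only the compared groups fitted (0.49, adjusted p = 0.0483). For mito, 2 of 23 differed, both positive, against 23.6% of all tested genes, 10.4% positive and 13.1% negative. These were H1f0 by 0.18 ± 0.03 (adjusted p = 8.4e-07) and H2bc4 by 0.28 ± 0.10 (adjusted p = 0.0217). The H2bc4 call was lost without Soft library 3 (0.24), Stiff library 2 (0.27), Stiff+mito library 2 (0.27) or Stiff+mito library 3 (0.25) and with DESeq2 (0.28, adjusted p = 0.0758). The sum of H3c14 and H3c15 differed by 1.07 ± 0.39 for mito (adjusted p = 0.0321) and by 1.00 ± 0.40 for TW (adjusted p = 0.0374).

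The genes around histone mRNA were counted from lists. Slbp had group means of 65.3 ± 3.38 TPM in Stiff-TW, 67.7 ± 2.70 in Stiff+mito and 75.3 ± 1.21 in Stiff, against 75.6 ± 0.67 in Soft-TW, 102 ± 1.34 in Soft+mito and 96.5 ± 4.53 in Soft (SD, n = 3 each). It fell by 0.28 ± 0.04 in Stiff against Soft (edgeR adjusted p = 8.7e-11), by 0.24 ± 0.04 in Soft-TW against Soft (adjusted p = 5.1e-09) and by 0.15 ± 0.04 in Stiff-TW against Stiff (adjusted p = 0.000363). Slbp also fell by 0.61 ± 0.04 in Stiff+mito against Soft+mito (adjusted p = 8.6e-30) and by 0.185 ± 0.039 in Stiff-TW against Soft-TW (adjusted p = 2.2e-05). With mito it rose by 0.18 ± 0.03 on the soft matrix (adjusted p = 1.1e-05) and fell by 0.15 ± 0.04 on the stiff one (adjusted p = 0.00138), and this difference passed (-0.33 ± 0.05, adjusted p = 2.4e-07). Npat, at 15.4 to 19.5 TPM in the group means, fell by 0.10 ± 0.04 in Stiff against Soft (adjusted p = 0.0374), by 0.10 ± 0.04 in Stiff-TW against Stiff (adjusted p = 0.0361) and by 0.13 ± 0.04 in Stiff-TW against Soft-TW (adjusted p = 0.00734). Of 37 tested genes of 3′ processing, the histone and the poly(A) machinery together, 9 rose and 16 fell in Soft-TW against Soft, and 10 rose and 20 fell in Stiff-TW against Stiff. Of all tested genes 28.9% rose and 28% fell in the first, and 35.5% rose and 34.1% fell in the second. The processing genes that fell include Ncbp2, of the cap-binding complex (-0.64 ± 0.05, adjusted p = 1.0e-23 in Soft-TW against Soft), and Srrt, its partner (-0.61 ± 0.03, adjusted p = 1.6e-33).

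Genes of S phase, when clustered histone genes are transcribed, were counted too, with Slbp among them as well as in the list of 3′ processing. In Soft-TW against Soft 1 of 52 S phase genes rose and 46 fell, with a median of -0.41, and 1 of 45 G2 and M phase genes rose and 36 fell, with a median of -0.20. In Stiff-TW against Stiff 5 S phase genes rose and 38 fell (median -0.30), while 28 G2 and M phase genes rose and 6 fell (median 0.14). The helicase subunit gene Mcm5 fell by 0.81 ± 0.04 in Soft-TW against Soft (edgeR adjusted p = 1.9e-40) and by 0.63 ± 0.03 in Stiff-TW against Stiff (adjusted p = 5.6e-33). Over all tested genes 28% fell in Soft-TW against Soft and 34.1% in Stiff-TW against Stiff. The 7 and 8 of 23 histone genes that rose there were close to the all-gene shares risen, 28.9% and 35.5%. In Stiff against Soft all 45 G2 and M phase genes rose, and 21 S phase genes rose and 12 fell. The all-gene shares there were 29.1% risen and 24.7% fallen. With mito, 2 S phase genes rose and 10 fell on the soft matrix, and 0 rose and 28 fell on the stiff one. The all-gene shares with mito were 14.8% risen and 11.9% fallen on the soft matrix, and 15.6% and 17.8% on the stiff one. Whether the cycle had a part in the histone changes was not tested.

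Histone variants were set beside the histone genes described here. Of 10 tested, 5 rose and 3 fell in Stiff against Soft, and H2az1, which encodes H2A.Z, rose by 0.44 ± 0.02 (edgeR adjusted p = 4.6e-36), while H2aj fell by 0.30 ± 0.04 (adjusted p = 3.8e-10). With TW, 3 rose and 3 fell on the soft matrix, and 4 rose and 3 fell on the stiff one. H2az1 fell with TW by 0.21 ± 0.02 on the soft matrix (adjusted p = 5.6e-15) and by 0.38 ± 0.02 on the stiff one (adjusted p = 1.4e-31). With mito, 3 variants rose and 0 fell on the soft matrix, and 3 rose and 1 fell on the stiff one. The 28 histone chaperone genes gave 4 risen and 18 fallen in Soft-TW against Soft and 4 risen and 21 fallen in Stiff-TW against Stiff, with 14 risen and 4 fallen in Stiff against Soft. With mito 4 rose and 4 fell on the soft matrix, and 1 rose and 14 fell on the stiff one. Beside these counts, 29.1% of all tested genes rose and 24.7% fell in Stiff against Soft. With TW, 28.9% rose and 28% fell on the soft matrix, and 35.5% and 34.1% on the stiff one. With mito, 14.8% of all tested genes rose and 11.9% fell on the soft matrix, and 15.6% and 17.8% on the stiff one.

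**Figure D5:**
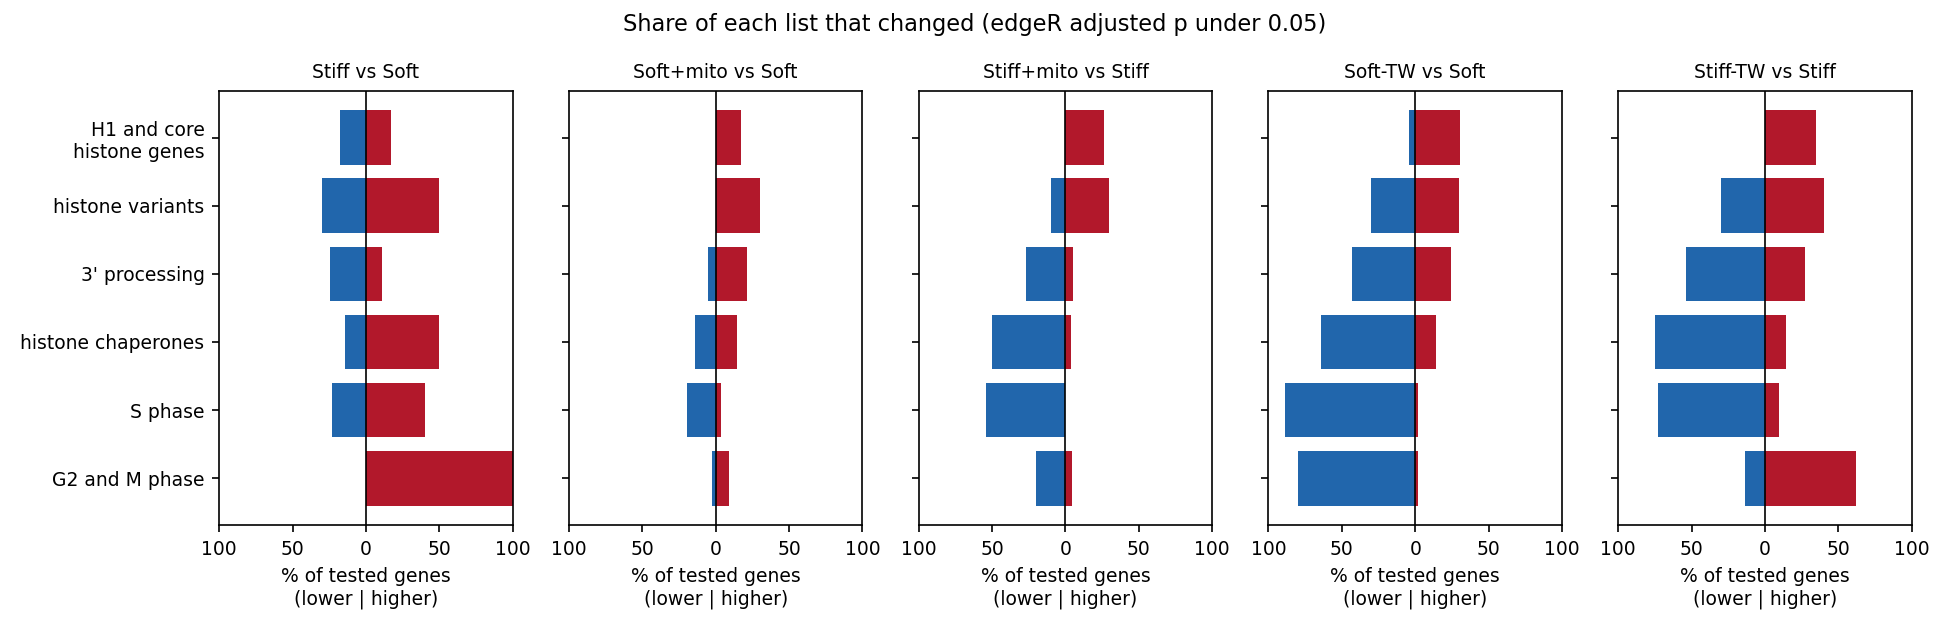
Share of the tested genes of each list that rose (right, red) or fell (left, blue) at an edgeR adjusted p under 0.05 in 5 comparisons. In Soft-TW against Soft 46 of 52 S phase genes fell, against 28% of all tested genes, and in Stiff-TW against Stiff 38 of 52 fell, against 34.1%; the 7 and 8 of 23 histone genes that rose stand beside 28.9% and 35.5% of all tested genes.

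Markers of macrophages were set beside the TW changes. Of the 19, 10 were tested, but Csf1r, Itgam, Mrc1, Laptm5 and Ctss passed the filter on low counts only through the TW libraries, where they are high, so their rises are not counted here. Of the other 5, Lyz2, Cd68, Cd14 and Mertk rose with TW on each matrix, Lyz2 by 0.94 ± 0.14 on the stiff one (edgeR adjusted p = 1.1e-08) and by 2.53 ± 0.13 on the soft one (adjusted p = 1.4e-33). Aif1 did not pass on either (0.30 ± 0.37 on the stiff and 0.47 ± 0.39 on the soft matrix). The summed level of all 19, the genes set aside included, was 83.2 to 85.7 TPM in Stiff-TW and 46.6 to 50.9 in Stiff, and 106 to 111 TPM in Soft-TW and 55.0 to 55.1 in Soft. Most of it came from the 4 markers just named. In the Stiff-TW mean Cd14 had 27.1, Mertk 24.8, Lyz2 13.4 and Cd68 11.8 TPM. The sum is therefore no evidence apart from theirs. In group means Csf1r was at 0.31 TPM in Stiff-TW and 0.83 in Soft-TW, and Cd163 was listed at 0 in 15 of 18 libraries. The summed level was 59.4 to 64.0 TPM in Stiff+mito and 64.5 to 68.9 in Soft+mito. Of 14 fibroblast genes, 8 were tested, with 6 risen and 1 fallen in Stiff-TW against Stiff and 4 risen and 1 fallen in Soft-TW against Soft. Of all tested genes 35.5% rose and 34.1% fell in the first, and 28.9% rose and 28% fell in the second. Of 15 epithelial genes, 4 were tested, with 0 risen and 2 fallen in Stiff against Soft, against all-gene shares of 29.1% and 24.7%. The part of such RNA in the histone changes was not tested.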

How the data were processed

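Poly(A)-selected, strand-specific RNA of 18 libraries in 6 groups of 3 was sequenced, per the labels' protocols, and mapped to mm10, per the submitters' processing notes. The sources used here name no counting tool, annotation or strand setting. The authors deposited estimated counts (expected counts) per gene, of which 10.9% were not whole at a tolerance of 0.001, and TPM per gene, with the same units per transcript. The 44 columns of averages were not used. All 65 histone gene identifiers matched RefSeq.

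Estimated counts were rounded, filtered with filterByExpr (12245 of 18397 genes kept), scaled by TMM (0.968 to 1.03) and fitted with edgeR 4.0.16 in R 4.3.3 (glmQLFit, robust, a mean per group over 18 libraries). Each of 9 contrasts was a two-sided quasi-likelihood F-test with Benjamini-Hochberg adjustment over all tested genes, with a call at an adjusted p under 0.05. The common coefficient of biological variation was 0.0175, and between replicates the chi-square per degree of freedom was 1.18 to 2.11. Standard errors are approximate: the log2 fold change over the root of F. The tests were also run on simulated data in which only well-counted genes were changed, so that run does not bear on calls at low counts.

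The genes and lists were chosen with earlier results of these data known. Named genes are the leading gene of each class, H1f0, H1f2, H2bc4 and H1f10, up to 6 risen and 6 fallen per comparison with the smallest adjusted p, Slbp, Npat, and up to 4 per list. Alternatives were library totals, DESeq2 1.42.0, no filter, only the compared groups, a replicate block, each library left out and, added later, near-identical genes summed.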

Additional observations from a re-analysis of the deposited data

Results flagged for a closer look

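The effect of mito or TW differed between the matrices for 4 histone genes, by the test of the difference itself (the change on Stiff minus that on Soft, log2, edgeR). Of 23 tested, 4 differed for TW, against 36.1% of all tested genes, and 2 for mito, against 23.6%. For TW the difference was 1.07 for H2ac18 (adjusted p = 1.3e-13), 0.64 for H1f10 (adjusted p = 4.9e-06), 0.38 for H2bc4 (adjusted p = 0.000559) and 0.09 for H1f0 (adjusted p = 0.00948), the last lost without Soft library 3 (adjusted p = 0.0607). For mito it was 0.28 for H2bc4 (adjusted p = 0.0217) and 0.18 for H1f0 (adjusted p = 8.4e-07). The H2bc4 call for mito was lost with DESeq2 (adjusted p = 0.0758) and without Soft library 3, Stiff library 2 or Stiff+mito library 2 or 3. H1f10 rose with TW on Stiff (0.56) and stood at -0.08 on Soft, where it did not pass.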

How the results depend on the processing

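Over the 9 contrasts, the number of histone genes called stayed within 1.5 times under 53 of 54 other settings. The exception was mito by matrix, with 2 genes and 1 with DESeq2, which gave an adjusted p to only 7 histone genes. Leaving out 1 library gave 1 to 3 genes there, with 1 without Stiff library 2 and 1 without Stiff+mito library 3, and 6 to 10 genes for Soft-TW against Soft. Of the named fold changes, 435 of 451 kept their call, 9 lost and 7 gained a call. Of 540 with a library left out, 504 kept it, 29 lost and 7 gained it. No fold change called in either fit reversed its direction. Those called in neither fit counted as kept whatever their sign. H4c9 in Soft+mito against Soft, for example, went from 0.08 to as low as -0.07 with a library left out. The cause of lost and gained calls was not tested. Library totals moved the share of risen among called genes to 44.1% in Stiff against Soft, to 38.3% in Soft+mito against Soft, to 38.6% in Soft-TW against Soft and to 58.1% for mito by matrix (54.1%, 55.5%, 50.8% and 44.25% with TMM). Replicate numbers did not pair libraries (r of -0.13 to 0.20, with 6 of 18 libraries closest to their own number). With the replicate block, 8 histone genes were called in Stiff against Soft, and the counts of the other 8 contrasts did not move either. Counts under about 30 limit most cluster genes.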
